A study of Arabidopsis thaliana with 27 samples.

Results

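REF6 peaks without BRM are the sites with a called peak in the first REF6-GFP library and no overlapping called peak in the first BRM-GFP library. They were chosen as the peaks of the first REF6-GFP list that share no base with a peak of the first BRM-GFP list, and 3180 of the 5413 REF6-GFP peaks (58.7%) met that rule. The other 2233 share at least 1 base with a BRM-GFP peak, and 9767 peaks of the first BRM-GFP list overlapped no REF6-GFP peak. These other peaks serve below as REF6 peaks with BRM and BRM peaks without REF6. The sites were thus chosen by the measured peak positions of the first 2 lists, which are described here and never tested.

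REF6 is a Jumonji-domain demethylase that removes methyl groups from lysine 27 of histone H3, and it recognises DNA through zinc fingers. Its substrate H3K27me3, the trimethylated form, is laid down by Polycomb repressive complex 2 and marks silent developmental genes in plants. BRM (BRAHMA) is an ATPase that powers SWI/SNF remodelling complexes, which move or evict nucleosomes and counteract Polycomb repression at many genes.

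The study measured where REF6 and BRM sit in each other's absence and where H3K27me3 lies when either or both are missing, by chromatin immunoprecipitation and sequencing of 14-day-old Arabidopsis thaliana seedlings. H3K27me3 was profiled in 2 libraries each of ref6 (allele ref6-1), brm ref6 (brm-1 ref6-1), brm (brm-1) and wild type (WT). The later GFP libraries, made with an antibody against GFP, comprised 2 of REF6-GFP in brm and 2 in WT, and 2 of BRM-GFP in ref6 and 1 in WT. The first REF6-GFP and BRM-GFP libraries were 1 each, and their labels name the tagged protein without a genotype. The label of 1 BRM-GFP library in ref6 gives ref6-1 plants with a BRM-GFP transgene under the BRM promoter. The other GFP labels name only the line. WT for a later GFP library therefore means a line whose label names neither brm nor ref6. No label says whether replicates came from separate plantings, so the p-values below measure the spread between these libraries, which may be technical.

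Each list holds the authors' peaks for 1 library and no read counts, so depth is unknown, and a peak missing from a list does not show that the protein or mark was absent. The 17 lists hold 127507 peaks. The H3K27me3 lists cover between 5.31 Mb and 11.5 Mb, both extremes being ref6 libraries, of which replicate 2 has 5582 wide peaks (median 1575 bp) and replicate 1 has 11925 narrow ones (median 289 bp). Libraries with and without ref6-1 overlap in covered length, while both brm lists are longer than both WT lists. The lists cover 5.31, 11.5, 9.83 and 7.28 Mb in ref6 and brm ref6, against 10.9, 10.3, 7.81 and 6.99 Mb in brm and WT.

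The REF6 peaks without BRM were about as wide as the REF6 peaks with BRM and had somewhat lower scores. Their median width was 1097 bp (quartiles 947 and 1345 bp), against 1154 bp for REF6 peaks with BRM and 527 bp for BRM peaks without REF6. The authors' peak score is a log scale of the p-value that the peak caller gave, with higher scores for smaller p-values. It had a median of 202 over the REF6 peaks without BRM, against 256 over the REF6 peaks with BRM, and 883 of the 3180 sites (27.8%) scored below 100. The nearest BRM-GFP peak of the first list lay at a median distance of 3472 bases (quartiles 1537 and 7686). The rule has a threshold of 1 shared base, and sites lie close to it on both sides. Just inside, the peak at AT4G33130 (chromosome 4, 15980100 to 15981099, TAIR10) ended 1 base from a BRM-GFP peak, and those at AT4G19460 and ZFN3 lay 3 bases from one. Just outside, the peak at AT2G42885 shared 1 base with a BRM-GFP peak, that at AT3G57100 shared 2 and that at AT4G38552 shared 5.

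Nearly all of the sites touch a gene, by at least 1 base. Of the 3180 peaks, 3089 (97.1%) touched a gene body, 67 lay within 1000 bp of one and 24 had no gene within that distance. The share touching a gene body was 98.1% for REF6 peaks with BRM and 74.9% for BRM peaks without REF6. Peaks wholly inside 1 protein-coding body made up 20.4% of the sites, against 15.8% of REF6 peaks with BRM and 16.1% of BRM peaks without REF6. The best-overlapping gene was protein-coding for 2923 peaks (91.9%), a pseudogene or transcribed pseudogene for 70 and 61, and a long non-coding RNA for 62. The peak's midpoint fell inside a protein-coding body at 82.0% of the sites, against 87.5% of REF6 peaks with BRM and 53.1% of BRM peaks without REF6. Both kinds of REF6 peak thus mostly had their midpoint within genes, and the share was lowest for BRM alone. The midpoint lay a median of 347 bp from the nearer end of the gene, against 368 bp for REF6 peaks with BRM; the gene table gives no strand, so that end may be the start or the finish. The peaks touched 3726 of 27444 protein-coding genes (13.6%), 3542 of them with a single such peak. At 888 sites (27.9%) the peak touched more than 1 protein-coding body, so the gene that a peak belongs to is uncertain there.

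Scores were at a ceiling in the strongest sites: 107 of the 3180 scored exactly 3100 and 10 scored above it, so the order among these is not an order of strength. The 10 above 3100 show the kinds of gene occupied. The highest value (3228) lay on AT1G65920 (chromosome 1, 24528366 to 24529665), followed by CIPK19, a CBL-interacting protein kinase (3222), and AT1G65200 (3215). ALS3, an ABC-transporter-like protein of aluminium tolerance (3193), FTIP1, which helps export the florigen FT from companion cells (3189), AT5G11370 (3177) and the importin alpha gene IMPA-8 (3173) came next. AT2G34240, AT4G03635 and AT5G45670 completed the group. All of these 10 peaks were present in every one of the 4 later REF6-GFP lists. AT1G65920 scored 701 and 178 in brm, against 673 and 221 in WT, whereas AT4G04980, at 3100 in the first list, scored 3100 and 1629 in brm, against 3100 and 2047 in WT. Scores varied widely between those lists even at these sites, as at CIPK19, with 1376 and 166 in brm against 1177 and 383 in WT. H3K27me3 differed from gene to gene. AT5G11370 had its peak overlapped by the mark in ref6 (54.9% and 96.6% of the peak's length) and brm ref6 (60.2% and 62.5%), and in no brm or WT library. CIPK19 was overlapped in ref6 (23.9% and 74.2%) and in 1 brm ref6 library (17.9%). The FTIP1 peak was overlapped in all 8 lists, and the other 7 in none.

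H3K27me3 was found at far more of these sites in plants carrying ref6-1. The mark overlapped 19.4% and 22.1% of the 3180 peaks in the ref6 libraries and 25.4% and 20.2% in the brm ref6 libraries, against 7.92% and 6.35% in brm and 5.0% and 4.47% in WT. The 4 libraries with ref6-1 all lay above the 4 without it, by a wide gap between 19.4% and 7.92%. The mean was 21.8% ± 2.67 with ref6-1 and 5.94% ± 1.55 without it (SD, n = 4 each), a difference of 15.9 percentage points (exact permutation test over libraries, two-sided, p = 0.0286, the smallest that 4 against 4 can give; Benjamini-Hochberg adjusted p = 0.0476 over 5 tests). Replicate 1 alone gave 19.4% and 25.4% against 7.92% and 5.0%, and replicate 2 alone gave 22.1% and 20.2% against 6.35% and 4.47%. When the labels were permuted only within each BRM genotype, or within each replicate number, the smallest p that the design allows is 0.0556, and that was the value found. The difference also held when the midpoint of the peak had to lie inside the mark, an alternative chosen after seeing the data that does not favour wide peaks (10.9 points, p = 0.0286, exact permutation test).

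**Figure D1:**
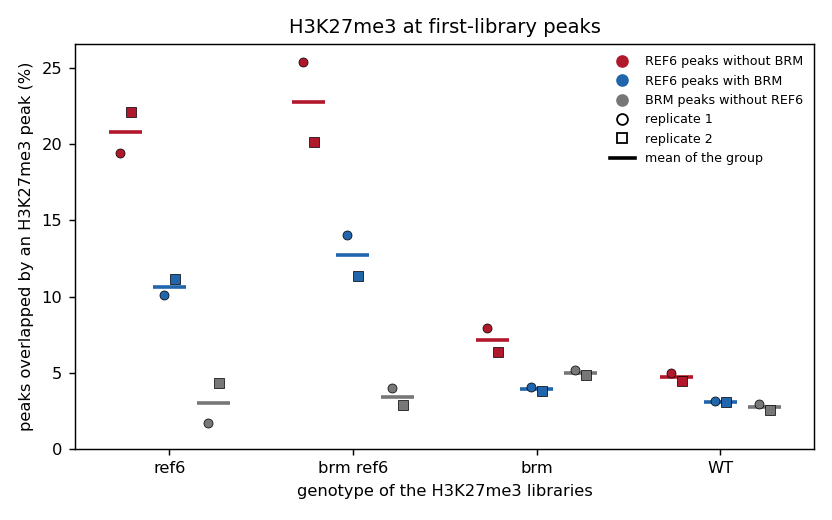
Share of peaks overlapped by an H3K27me3 peak (vertical axis, percent) in each of the 8 H3K27me3 libraries (points; circles replicate 1, squares replicate 2; bars the mean of 2 libraries), by genotype, for REF6 peaks without BRM (red), REF6 peaks with BRM (blue) and BRM peaks without REF6 (grey). The red points lie between 19.4% and 25.4% in ref6 and brm ref6 and between 4.47% and 7.92% in brm and WT.

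In percentage points the gain was larger where BRM was not called. At REF6 peaks with BRM the mark overlapped 10.1% and 11.2% of peaks in ref6 and 14.1% and 11.4% in brm ref6, against 4.08% and 3.81% in brm and 3.13% and 3.05% in WT. In each of the 8 libraries the share was therefore higher at REF6 peaks without BRM. The excess over REF6 peaks with BRM was 10.1 ± 1.23 points with ref6-1 and 2.42 ± 1.06 points without it (SD, n = 4 each), and this excess itself differed by 7.71 points (exact permutation test, two-sided, p = 0.0286, adjusted p = 0.0476). As a ratio the excess moved less: the share at REF6 peaks without BRM was 1.93 and 1.99 times that at REF6 peaks with BRM in ref6 and 1.81 and 1.77 times in brm ref6, against 1.94 and 1.67 times in brm and 1.60 and 1.47 times in WT. On the ratio scale libraries with and without ref6-1 overlap, and the difference did not pass the test (0.17 in log2 ratio, exact permutation p = 0.143, adjusted p = 0.238), so the larger gain without BRM holds in percentage points only. The ratio was added after seeing the data. BRM peaks without REF6 carried the mark at 1.67% and 4.34% in ref6 and 3.97% and 2.89% in brm ref6, against 5.15% and 4.87% in brm and 2.96% and 2.55% in WT. The excess over those peaks differed by 16.5 points between libraries with and without ref6-1 (p = 0.0286, adjusted p = 0.0476, exact permutation test); as a log2 ratio the difference was 2.201 (p = 0.0286, adjusted p = 0.0714).

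For brm-1 no such difference was found. Libraries carrying brm-1 averaged 15.0% ± 9.31 and those without it 12.8% ± 9.34 (SD, n = 4 each), a difference of 2.21 points (exact permutation test, two-sided, p = 0.6, adjusted p = 0.686). The spread in both groups is that between libraries with and without ref6-1. Among single genotypes, ref6 averaged 20.8% ± 1.91 against 4.73% ± 0.378 in WT, brm ref6 averaged 22.8% ± 3.69 and brm averaged 7.14% ± 1.11 (SD, n = 2 each). In each of the 3 mutants both libraries lay above both WT libraries; for brm the lists themselves also cover more of the genome than in WT (10.9 and 10.3 Mb, against 7.81 and 6.99 Mb). With every list cut to its 5582 highest-scoring peaks, brm exceeded WT by 1.68 points in place of 2.41. The exact permutation p was 0.3333 each time (adjusted p = 0.417), the smallest that 2 against 2 can give.

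Relative to 5000 bp away, the centres of the peaks were richer in the mark with ref6-1 and poorer without it. At the centre 8.62% and 15.0% of the sites lay inside an H3K27me3 peak in ref6, against 5.46% and 11.3% at a distance of 5000 bp. In brm ref6 the centre had 15.4% and 10.2%, against 9.67% and 7.22% at 5000 bp. All 4 libraries with ref6-1 were thus higher at the centre than at 5000 bp. In brm the centre had 1.86% and 1.42%, against 9.50% and 8.71% at 5000 bp, and in WT it had 1.19% and 1.13%, against 6.98% and 6.29%. All 4 libraries without ref6-1 were thus lower at the centre than at 5000 bp. At REF6 peaks with BRM the centre lay below the level at 5000 bp in all 8 libraries. There the ratio of centre to 5000 bp was 0.844 and 0.709 in ref6 and 0.860 and 0.815 in brm ref6, against 0.181 and 0.160 in brm and 0.212 and 0.238 in WT. At REF6 peaks without BRM the same ratio was 1.58 and 1.33 in ref6 and 1.59 and 1.41 in brm ref6, against 0.195 and 0.162 in brm and 0.171 and 0.180 in WT. A local rise at the centre with ref6-1 was shared by both kinds of peak: the ratio of centre to 1000 bp was 1.46 and 1.18 in ref6 and 1.41 and 1.397 in brm ref6 at REF6 peaks without BRM, and 1.9 and 1.37 in ref6 and 1.798 and 2.05 in brm ref6 at REF6 peaks with BRM. The level at 1000 bp was below that at 5000 bp in the 4 libraries without ref6-1 only around REF6 peaks without BRM, and in all 8 libraries around REF6 peaks with BRM. These shapes are a description, with no test.

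**Figure D2:**
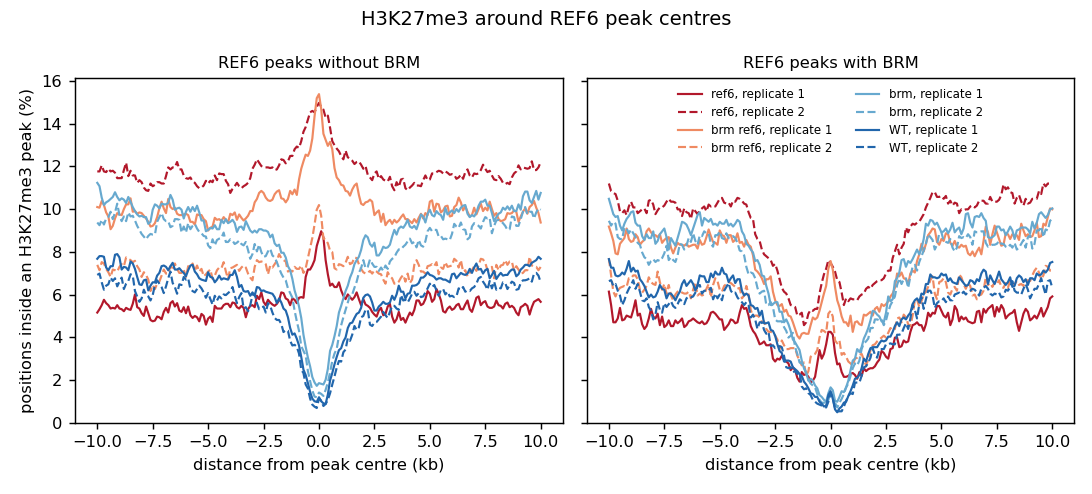
Share of sites whose position at a given distance from the peak centre (horizontal axis, kb) lies inside an H3K27me3 peak (vertical axis, percent), for REF6 peaks without BRM (left) and REF6 peaks with BRM (right). Lines are the 8 libraries, coloured by genotype, solid for replicate 1 and dashed for replicate 2; at the centre of the left panel ref6 and brm ref6 reach 8.62% to 15.4% and brm and WT fall to between 1.13% and 1.86%.

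Site by site, 2215 of the 3180 peaks (69.7%) were overlapped by none of the 8 H3K27me3 lists, against 86.1% of all 15180 peaks of the first 2 lists, and 70 (2.2%) by all 8, against 1.26%. A site was said to gain the mark when all 4 lists with ref6-1 overlapped it and none of the 4 lists without it did. That was so for 294 sites (9.25%), against 2.64% of all 15180 peaks, 103 REF6 peaks with BRM (4.61%) and 4 BRM peaks without REF6 (0.0410%). The reverse was found at 0 sites, against 0.0527% of all peaks. For ref6 alone against WT, 374 sites gained the mark in both ref6 libraries and in neither WT library (11.8%, against 3.45% of all peaks) and 2 lost it (against 0.257%). For brm ref6 against WT, 447 sites gained it (14.1%, against 4.52%) and 4 lost it (against 0.224%). For brm against WT, 35 gained it (1.10%, against 0.968%) and 2 lost it (against 0.0659%), shares near those of all peaks. The share gained in brm was 1.09% at BRM peaks without REF6 but 0.269% at REF6 peaks with BRM. Of REF6 peaks with BRM, 5.96% gained the mark in ref6 and 7.70% in brm ref6, each against WT. Gained by all 4 brm-1 lists and no other were 2 sites, against 0.0988% of all peaks, and 0 sites were lost, against 0% of all peaks.

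The 294 gained sites carried 291 different genes by their best overlap, 267 of the sites on a protein-coding body. The mark covered a median of 41.7% and 85.5% of the peak's length there in ref6 and 73.0% and 49.9% in brm ref6. They had a median REF6-GFP score of 382, against 180 for the 2215 sites never marked. The nearest H3K27me3 peak of WT lay at a median of 2714 bases from the gained sites, against 7926 from the sites never marked. Of the gained sites 26.9% lay within 1000 bp of the WT mark and 37.4% beyond 5000 bp, against 6.19% and 65.1% of the sites never marked. Gained sites thus lay both at the edge of regions marked in WT and far from any.

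The gained sites with the highest H3K27me3 score, taken as the lowest of the 4 lists with ref6-1, held genes covered by the mark over most of their bodies in ref6 and brm ref6. AT5G56810 (peak on chromosome 5, 22975346 to 22976523) led with scores of 2544 and 1647 in ref6 and 3100 and 1446 in brm ref6, and no peak in brm or WT. The mark covered 99.2% and 100% of that gene's body in ref6 and 100% in both brm ref6 libraries. AT5G53710 came next, with its body covered over 100% in both ref6 libraries and over 100% and 96.9% in brm ref6. Its REF6-GFP peak was among the strongest of the later lists, with scores of 3100 and 1228 in brm, against 3100 and 1840 in WT. AT3G59270, AT1G51210, AT5G41380, AT3G02430 and the non-coding gene AT4G09125 had coverage of 70.5% or more in ref6, 54.5% or more in brm ref6 and none in brm or WT. CYP71B16, a cytochrome P450, differed in that part of its body was already covered without ref6-1: 94.4% and 100% in ref6 and 100% and 86.5% in brm ref6, against 27.5% and 1.88% in brm and 24.6% and 14.9% in WT. Its REF6-GFP peak was weak (score 57.4) and in none of the later lists.

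XTH25 and XTH12 lie close together on chromosome 5 and encode xyloglucan endotransglucosylase/hydrolases, which remodel the cell wall, and both gained the mark. XTH25 was covered over 91.6% and 100% of its body in ref6 and 100% and 95.5% in brm ref6. XTH12, named for its strong peak in the later REF6-GFP lists, was covered over 81.4% and 100% in ref6 and 100% and 85.5% in brm ref6. Neither was covered in brm or WT. The REF6-GFP peak was unequal, with a score of 3100 at XTH12 and presence in all 4 later lists, and a score of 71.4 at XTH25 with presence in none. XTH13 and TCH4 (also called XTH22), looked up after these values were seen, lie in the same row of genes and carry REF6 peaks with BRM. By locus number XTH13 falls between XTH12 and XTH25. XTH13 was covered over 100% in all 4 libraries with ref6-1. TCH4, a touch-induced gene, was covered over 23.6% and 67.2% in ref6 and 65.7% and 33.4% in brm ref6. All 4 genes were bare in brm and WT, so the mark here spanned sites with and without BRM.

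Counted by genes, the same contrast appeared. Of 3561 protein-coding genes touched by a REF6 peak without BRM and by no REF6 peak with BRM, 166 (4.66%) had at least 50% of the body marked in both ref6 libraries and in neither WT library. That compares with 1.3% of all 27444 protein-coding genes, 30 of the 2507 genes with REF6 peaks with BRM and none without (1.2%), 6 of the 6288 genes with a BRM peak alone (0.0954%) and 151 of the 14923 genes with no first-list peak (1.01%). A REF6 peak without BRM does not mean a gene without BRM: of the 3726 genes with such a peak, 606 carried a BRM-GFP peak elsewhere on the body. Of these 606, 3 gained the mark (0.495%), against 167 of the 3120 with no BRM-GFP peak on the body (5.35%). The 606 are longer genes (median 2853.5 bp, against 2185 bp), of which 50% is more bases to cover, and the part of length was not tested. The 166 genes are 46.5% of the 357 genes that gained the mark. The reverse, loss in ref6, was found at 1 of the 3561 genes (0.0281%), against 0.375% of all genes. In all 4 libraries with ref6-1 and none without, 119 of the 3561 genes gained the mark (3.34%, against 0.765% of all genes) and 1 lost it (against 0.146%).

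Gene lists for hormone, developmental and chromatin pathways, 208 genes in all, held 29 genes at REF6 peaks without BRM (13.9%, against 13.6% of all protein-coding genes), so the lists as a whole were not richer in such sites. The count varied from list to list: 4 of 11 leaf senescence genes, 3 of 11 auxin synthesis genes, 3 of 14 brassinosteroid, 3 of 15 gibberellin and 3 of 15 heat shock factor genes had one, against 0 of 13 ethylene, 0 of 8 seed maturation and 0 of 9 housekeeping genes. Light signalling had 1 of 14, where 8 of 14 carried REF6 peaks with BRM. Of the 29 genes, 6 gained the mark over at least 50% of the body in ref6 against WT, where 170 of the 3726 genes at such peaks did (4.56%) and 1.3% of all protein-coding genes. The lists were chosen with earlier results of these data known, so this count describes the listed genes only.

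Transcription factors of organ boundaries and flowering were among them. CUC1 (CUP-SHAPED COTYLEDON 1), a NAC factor that sets the boundary between organs, had its peak on chromosome 3, 5109845 to 5111287. Its body was covered over 98.4% and 100% in ref6 and 100% and 98.8% in brm ref6, and not at all in brm or WT. Its relative CUC3 was partly covered in every genotype, 31.2% and 45.8% in ref6 and 80.0% and 33.7% in brm ref6, against 30.4% and 22.6% in brm and 33.1% and 22.6% in WT, and these groups overlap. MAF4, a MADS-box repressor of flowering, had 47.8% and 98.9% in ref6 and 66.2% and 49.5% in brm ref6, against 42.5% and 46.3% in brm and 32.9% and 23.2% in WT. All 4 MAF4 values with ref6-1 lay above the 4 without it, and the REF6-bound stretch of MAF4 was overlapped only in those 4. SHP1, a MADS-box gene of the fruit, was covered in every library (45.4% to 74.0%).

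The 3 gibberellin genes of the list with such a peak were covered in ref6 and brm ref6 and bare in brm and WT, and 2 of them gained the mark over at least 50% of the body (against 1.3% of all genes). GA20OX2, a GA 20-oxidase of the last steps of gibberellin synthesis (peak on chromosome 5, 21055408 to 21057039, score 3100), was covered over 91.7% and 100% in ref6 and 100% and 91.8% in brm ref6. GA2OX1, a GA 2-oxidase that inactivates gibberellins (score 3100), was covered over 70.5% and 100% in ref6 and 93.4% and 92.5% in brm ref6. GA20OX1 had less, 17.3% and 38.4% in ref6 and 74.8% and 17.9% in brm ref6. GA1, which acts at the start of gibberellin synthesis, is outside the list and was named after its values were seen. Its REF6 site gained the mark, but its body was covered in every library, 41.3% and 94.3% in ref6 and 80.9% and 72.1% in brm ref6, against 76.4% and 72.5% in brm and 65.4% and 63.5% in WT.

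In the brassinosteroid list BR6OX1, an oxidase of the last steps of synthesis, had a strong REF6-GFP peak (score 3100, in all 4 later lists) that gained the mark. Its body was covered over 18.4% and 31.1% in ref6 and 51.2% and 29.2% in brm ref6, against none in brm and WT. BR6OX2, which catalyses the same oxidation, and CPD, a cytochrome P450 of the pathway, were covered in no library. In auxin synthesis YUC8, a flavin monooxygenase, was covered over 50.7% and 69.95% in ref6 and 76.1% and 29.4% in brm ref6, against 24.0% and 23.5% in brm and 42.6% and 22.0% in WT. YUC7, of the same family, had one of the strongest REF6-GFP peaks (score 3100, with 2958 and 970 in the later brm lists, against 1844 and 1098 in the later WT lists) and no mark in any library. TAR2, which makes the precursor that YUC enzymes use, was bare as well. A strong REF6 peak without BRM thus did not by itself go with the mark in ref6.

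Among senescence genes NYE2, which acts in chlorophyll breakdown, was covered over 88.9% and 100% in ref6 and 83.7% and 73.5% in brm ref6 and bare in brm and WT, although its REF6-GFP peak was weak (score 136) and in no later list. NAP and ORE1, NAC factors that drive leaf ageing, carried a separate BRM-GFP peak on the gene besides the REF6 peak. NAP was covered over 38.3% in 1 brm ref6 library and nowhere else, and ORE1 nowhere. The lipoxygenase gene LOX1 was bare. Of the heat shock factors HSFA7B (score 2839) was covered over 51.7% and 100% in ref6 and 98.4% and 77.6% in brm ref6, against none in brm and WT, whereas HSFA1A and HSFA2 were bare in all 8 libraries. The chromatin genes with such a peak were RING1A and BMI1A, subunits of Polycomb repressive complex 1, and SYD and SWI3B, an ATPase and a core subunit of SWI/SNF complexes, and none of the 4 was covered in any library.

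**Figure D3:**
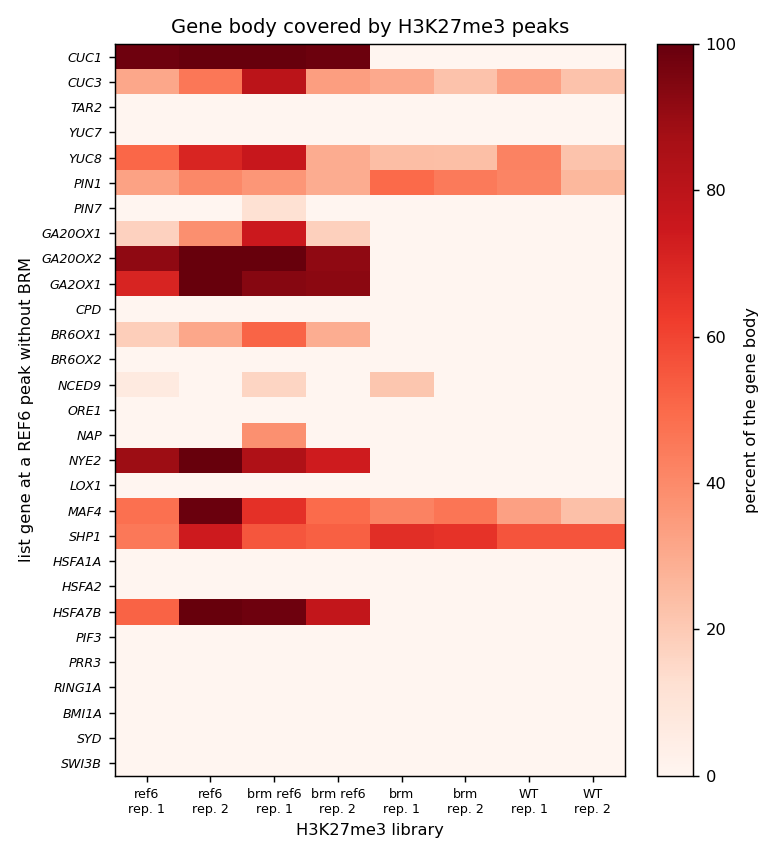
Percent of the gene body covered by H3K27me3 peaks (colour, 0 to 100) for the 29 list genes at a REF6 peak without BRM (rows) in the 8 H3K27me3 libraries (columns). CUC1, GA20OX2, GA2OX1, NYE2 and HSFA7B are covered over 51.7% or more in the 4 libraries with ref6-1 and not in brm or WT.

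REF6 was found again at part of the sites. The later REF6-GFP lists overlapped 46.7% and 21.9% of the 3180 peaks in brm, against 34.5% and 22.9% in WT. At REF6 peaks with BRM the shares were of the same order, 46.4% and 24.9% in brm, against 38.8% and 27.1% in WT, and at BRM peaks without REF6 no list exceeded 0.625%. Of the 3180 sites 1530 (48.1%) were in none of the 4 later REF6-GFP lists and 502 (15.8%) in all 4, against 6.44% of all 15180 first-list peaks. The share in all 4 was 20.2% at REF6 peaks with BRM. The brm and WT libraries did not separate: the means were 34.3% ± 17.5 in brm and 28.7% ± 8.18 in WT (SD, n = 2 each; exact permutation test, two-sided, p = 1, adjusted p = 1). Replicate 1 was higher in brm and replicate 2 was lower in brm. Without brm replicate 1 the difference of 5.64 points became -6.76, and without WT replicate 2 it became -0.142. Sites in both brm lists and neither WT list numbered 37 (1.16%, against 0.375% of all peaks). Sites in both WT lists and neither brm list numbered 10 (0.314%, against 0.112%). The same 2 patterns made up 0.896% and 0.269% of REF6 peaks with BRM. A split by replicate was far more frequent and ran one way. In replicate 1 of both genotypes and in neither replicate 2 were 293 sites (9.21%), and 6 (0.189%) showed the reverse. REF6 peaks with BRM gave similar shares, 8.69% and 0.0448%, and BRM peaks without REF6 gave 0.0614% and 0.143%. The replicate 1 lists are also longer, covering 2.32 Mb in brm and 2.08 Mb in WT, against 0.686 and 0.808 Mb for replicate 2.

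**Figure D4:**
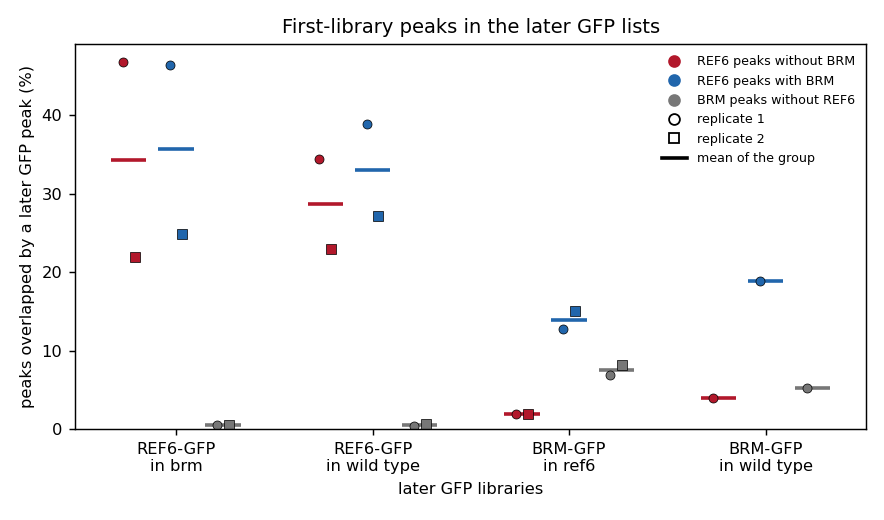
Share of first-list peaks overlapped by a peak of the later GFP lists (vertical axis, percent), by library (circles replicate 1, squares replicate 2, bars the mean), for REF6-GFP in brm and WT and BRM-GFP in ref6 and WT. REF6 peaks without BRM (red) lie between 21.9% and 46.7% in the REF6-GFP lists and between 1.89% and 4.03% in the BRM-GFP lists.

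Score in the first list went with being found again. In the lowest quartile of scores (50.02 to 92.5) the later lists overlapped 8.30% and 3.899% of the sites in brm, against 4.91% and 4.40% in WT. In the highest quartile (543 to 3228) they overlapped 97.7% and 65.5% in brm, against 91.3% and 67.9% in WT. Sites of low score were thus seldom found again. The sites with the highest score in all 4 later lists included XTH12, MYB61, a MYB transcription factor, AAP4, an amino acid permease, OCT5, an organic cation transporter, AT4G04980, AT2G21560 and AT5G53710. MYB61 (score 3100) had 3100 and 1409 in the later brm lists, against 2274 and 1142 in the later WT lists. It gained the mark too, with its body covered over 47.3% and 100% in ref6 and 91.0% and 77.8% in brm ref6, against none in brm and WT. AAP4 and AT2G21560 were overlapped by the mark only in brm ref6, over 22.6% and 9.41% and over 30.2% and 15.5% of the body.

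The mark was most frequent at sites that every later REF6-GFP list held. At the 502 sites in all 4 lists H3K27me3 overlapped 35.7% and 33.9% in ref6 and 42.6% and 35.5% in brm ref6, against 10.6% and 9.96% in brm and 8.17% and 8.17% in WT. At the 1530 sites in none it overlapped 14.6% and 17.8% in ref6 and 19.5% and 14.8% in brm ref6, against 7.65% and 6.08% in brm and 4.90% and 4.05% in WT. Libraries with ref6-1 lay above those without it at both kinds of site. Gained sites made up 18.3% of the 502 and 5.69% of the 1530. By score, they made up 5.03% of the lowest quartile and 15.8% of the highest. Restricted to the 636 sites in both later WT lists, the difference between libraries with and without ref6-1 was 25.4 points, against 15.9 over all 3180 (exact permutation test, p = 0.0286 for each). Peaks with high scores are also wider (median 1488 bp in the highest quartile, 899 bp in the lowest), which by itself gives the mark more bases to overlap, and the part of width in this order was not tested. By distance to BRM, gained sites were 8.25% of those within 1000 bp of a first-list BRM-GFP peak, 8.27% at 1000 to 5000 bp, 11.0% at 5000 to 20000 bp and 9.73% beyond.

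**Figure D5:**
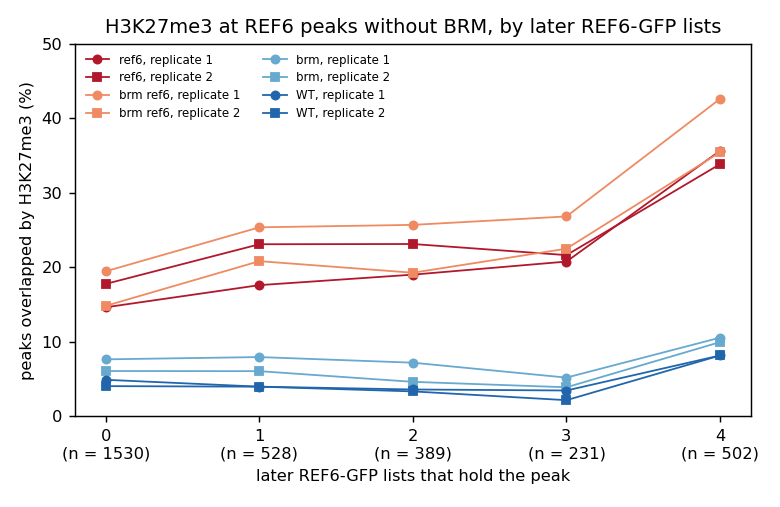
Share of REF6 peaks without BRM overlapped by H3K27me3 (vertical axis, percent) by the number of later REF6-GFP lists that hold the peak (horizontal axis, with the number of peaks), one line for each of the 8 libraries, coloured by genotype. With 4 later lists ref6 and brm ref6 reach 33.9% to 42.6% and brm and WT reach 8.17% to 10.6%.

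The first BRM-GFP list holds 12230 peaks, and the later BRM-GFP lists hold 2507 and 2564 in ref6 and 1466 in WT. Because the later lists are far shorter, a site missing from them says little about whether the label without BRM holds. The later lists overlapped 1.98% and 1.89% of the 3180 sites in ref6, against 4.03% in WT (128 sites; exact Clopper-Pearson 95% interval 3.37% to 4.77%, counting error only). REF6 peaks with BRM gave 12.8% and 15.0% in ref6, against 18.9% in WT, and BRM peaks without REF6 gave 6.97% and 8.22% in ref6, against 5.29% in WT. The sites without BRM were therefore poorest in later BRM peaks in each of the 3 libraries, although 146 of them met at least 1 later BRM list. The ref6 libraries differed from WT by -2.09 points (exact permutation test, two-sided, p = 0.3333, adjusted p = 0.417, with 1 WT library). With at least 50% of the peak overlapped the difference was 0. In WT and in neither ref6 library were 77 sites (2.42%, against 3.1% of all first-list peaks), and in both ref6 libraries but not WT were 6 (0.189%, against 1.32%). The WT excess lay in the strongest REF6 sites: in the highest score quartile 0.881% and 0.755% were overlapped in ref6, against 10.1% in WT, and in the lowest quartile 3.14% and 3.02% in ref6, against 2.39% in WT. DIN9, a dark-inducible gene with a REF6-GFP score of 3100, had a BRM-GFP score of 600.7 in WT and no peak in ref6. The same held at XTH12 (567 in WT), AT5G53710 (393), MYB61 (271) and OCT5 (444). Other strong sites, such as GA20OX2, GA2OX1, HSFA7B and YUC7, had no later BRM-GFP peak at all.

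Some sites were called in nearly every GFP library. Of the 100 sites more than 1000 bp from any protein-coding gene, 39 were in all 4 later REF6-GFP lists, 28 in all 3 later BRM-GFP lists and 27 in all 7, against 463, 20 and 19 of the 3080 sites near a protein-coding gene. AT5G31770 and AT5G31821, pseudogenes on chromosome 5 with peaks 11429 and 12675 bp wide, and AT4G05185, a non-coding gene with a peak 7719 bp wide, are of this kind. At AT5G31770 the REF6-GFP scores were 3100 and 2345 in brm, against 3100 and 3100 in WT, and the BRM-GFP scores were 2095 and 212 in ref6, against 1856 in WT. At AT4G05185 the BRM-GFP scores were 2829 and 955 in ref6, against 582 in WT. The repeat content of these stretches and the signal of the input libraries there were not analysed here. Leaving out all 100 sites, the difference in marked share between libraries with and without ref6-1 was 15.9 points, as over all sites.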

How the data were processed

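Immunoprecipitated DNA of 14-day-old seedlings had been sequenced by the authors, aligned to TAIR10 with Bowtie2 2.2.5 and called into peaks with MACS 1.4, per the submitters' processing notes; which input served as control, and the caller's settings, are not given in the sources used. Each of the 17 deposited lists gives the positions and the score of the authors' peaks for 1 library, at a minimum of 50, and no depth. The inputs, 10 samples, were not used. The peaks and gene lists were chosen with earlier results of these data known, as were the rules for naming genes: list genes with such a peak, and the sites with the highest REF6-GFP, H3K27me3 and later GFP scores. Overlap meant at least 1 shared bp. Shares of peaks were compared over libraries with exact permutation tests, two-sided, adjusted with the Benjamini-Hochberg procedure in 2 families of 5 at 0.05; peaks and genes are not replicates. Scripts ran under Python 3.11.15, numpy 2.4.6, pandas 2.3.3 and scipy 1.17.1 and were checked on simulated data. Genes came from the RefSeq table of TAIR10.1, which gives no strand; 208 of 218 list symbols matched. Against it, peak midpoints fell in genes at 77.9% to 83.9% by chromosome without a shift and at 64.7% to 69.3% when shifted by 1000 bp. Coordinates are those of the peaks, counted from 1. Replicate numbers were not taken as pairs, with 2 numbers a group and no label that ties them. Alternatives were stricter scores and overlaps, other site subsets, lists cut to 1 length, permutation within blocks and leaving out each library.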

Additional observations from a re-analysis of the deposited data

Results flagged for a closer look

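The gain of H3K27me3 in libraries with ref6-1 differed, in percentage points, between REF6 peaks without BRM and REF6 peaks with BRM, by a test of that difference over libraries. The excess of the marked share at peaks without BRM was 8.81 to 11.3 points in the 4 libraries with ref6-1 and 1.42 to 3.85 points in the 4 libraries without it, a difference of 7.71 points (exact permutation test, two-sided, p = 0.0286, adjusted p = 0.0476). The difference depends on the scale: as a ratio the share at peaks without BRM was 1.77 to 1.99 times that at peaks with BRM with ref6-1 and 1.47 to 1.94 times without it, and the difference in log2 ratio was 0.17 (exact permutation p = 0.143, adjusted p = 0.238). Median peak width was close in both sets (1097 against 1154 bp). Scores were lower at peaks without BRM, with a median of 202 against 256 and 27.8% against 23.1% below 100. The H3K27me3 level 5000 bp away was higher around peaks without BRM in 7 of the 8 libraries. At 1000 bp it was higher in all 8, as in ref6 (5.90% and 12.7%, against 2.24% and 5.44%) and WT (3.71% and 3.21%, against 1.68% and 1.37%). The part of score, width and surrounding level in the result was not tested.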

How the results depend on the processing

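Of 174 recomputed values, 153 were labelled as kept, 6 as weaker, 10 as reversed and 5 as moved. A tested difference was kept when its direction and its side of the threshold held. A count, which has neither, was kept when it stayed of similar size and otherwise moved. The comparisons between single genotypes could not pass the threshold under any setting, so their side of it was fixed in advance. The replicate block, permuting within replicate numbers, left the 3 differences by ref6-1 at 15.9, 7.71 and 16.5 points with an exact permutation p of 0.0556 (adjusted p = 0.0926), and permuting within BRM genotype did the same for the 15.9 points; neither design can go lower. As log2 ratios of shares, added after seeing the data, the 7.71 and 16.5 points became 0.17 (adjusted p = 0.238) and 2.201 (adjusted p = 0.0714, exact permutation tests). Same-numbered libraries varied together for REF6-GFP (correlation of replicate differences 0.285) and hardly for H3K27me3 (0.00624 to 0.0315); REF6-GFP, brm minus WT, was 5.64 points with the block too (exact permutation p = 1). No paired analysis was possible for BRM-GFP in ref6 against WT because they share 1 number. Leaving out 1 library, those 3 differences ranged from 14.7 to 16.6, 7.30 to 8.18 and 15.6 to 16.9 points (exact permutation tests, adjusted p = 0.0476 each), the brm-1 difference from -1.27 to 5.34, its excess over REF6 peaks with BRM from -0.838 to 2.42, and the share in later REF6-GFP lists, brm minus WT, from -6.76 to 18.1. With the H3K27me3 lists cut to the 5582 peaks of the shortest, the brm-1 difference was -0.236. At 50% overlap the BRM-GFP difference, ref6 minus WT, was 0, gained sites numbered 130 (ref6-1 lists) and 163 (ref6 against WT), and sites in all later REF6-GFP lists to 12, since later peaks are narrow. Among sites in both later WT lists, gained sites numbered 104 and 125, there being fewer sites. The planned test of the REF6 motif was not run, for want of a genome sequence.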

Other observations

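Cysteine-rich receptor-like kinases (CRKs), a family of membrane kinases many of which respond to pathogens and oxidative stress, were often occupied. The family was looked at after its count was seen. Of 42 such genes 19 (45.2%) were touched by a REF6 peak without BRM, against 13.6% of all protein-coding genes, and 29 (69.0%) by a REF6 peak of either kind, against 22.7%. All 19 lie on chromosome 4, as do 37 of the 42, many in tandem rows, so near-identical copies could share reads. CRK41 (REF6-GFP score 2792), CRK12 and CRK13 (2876, 1 shared peak), CRK20 (2622) and CRK26 (2474) were also in all 4 later REF6-GFP lists. H3K27me3 covered none of the 19 in WT. CRK20 was the single gene of the 19 that gained the mark over at least 50% of the body in both ref6 libraries and in neither WT library. Of the 3726 genes at REF6 peaks without BRM, 170 did so (4.56%). Among the 19, 6 were covered in no library at all. Shares of bare genes over all genes were not computed, so these counts are not read as a trait of the family.

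MicroRNA genes lay near some of the sites. Of 326 microRNA genes, 28 (8.59%) lay within 1000 bp of a REF6 peak without BRM, 17 of them with the peak on the gene. By the narrower measure of a peak on the gene, 3726 of 27444 protein-coding genes (13.6%) had one. The share of all genes within 1000 bp was not computed, so these counts are not read as a trait of microRNA genes.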
